A study of Homo sapiens with 5 samples.

Results

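The PTP4A family, also called the phosphatases of regenerating liver, comprises PTP4A1, PTP4A2 and PTP4A3, and its 3 genes were followed among 58929 genes in A549 cells with altered RBMS1. PTP4A1 was selected on its high count in the sh control library, a measured value, and the other 2 members were taken by family name. The level of PTP4A1 in the sh control, and its contrasts with it, are therefore described here with no test. The series has 5 libraries, which its design text calls ribosome footprint profiling, a method meant to count fragments of mRNA held by ribosomes. How far the counts here are such fragments was not tested. The molecule label reads total RNA, and an input of fragmented total RNA is named in the protocol and was not analysed here.

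All libraries come from A549, an established human lung adenocarcinoma line grown in F12K medium with 10% serum, and the lines were stable. The RBMS1 overexpression group is 1 library (R1A). The RBMS1 knockdown group is 2 libraries, sh1088 and sh1196, each with a hairpin of its own. The sh control, the hairpin control of the knockdown, is 1 library, and the pCDH control, set against overexpression, is 1 library. Cells of all groups were given cycloheximide at 100 μg/mL for 15 min, which stops ribosomes on their mRNA, and all lysates were digested with RNase I for 5 min to leave the stretches that ribosomes cover. The mean fragment length that RSEM used, read as the median over genes of length minus effective length plus 1, differed between libraries: it was 40.9 nt in R1A, 43.4 and 46.3 nt in sh1088 and sh1196, against 46.0 nt in the sh control and 52.3 nt in the pCDH control. The part of fragment length in the results was not tested. The labels do not say whether a line is a clone or a pool, or whether the knockdown libraries are separate cultures beyond their hairpins. P-values therefore reflect no more than the spread between these libraries, and that spread may be technical. Counting intervals leave out everything but counting error, because PCR copies of 1 molecule are not independent.

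PTP4A proteins are small phosphatases with a cysteine in the active site and a prenyl group at the tail that holds them at membranes. They bind the CNNM magnesium transporters, and this binding is among the best described of their activities. Their own mRNAs are known to carry an upstream open reading frame that restrains translation when magnesium is plentiful, and PTP4A3 is known for its high level in metastatic tumours. RBMS1 is an RNA-binding protein.

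The libraries held between 10327747 and 13980843 estimated counts, and the share of nuclear protein-coding genes lay between 37.7% (sh control) and 66.3% (pCDH control). RBMS1 stood at 37.2 scaled counts (CPM after TMM scaling over the 5 libraries) in R1A, at 18.2 and 13.5 CPM in sh1088 and sh1196, and at 30.6 CPM in the sh control and 24.8 CPM in the pCDH control. By TPM, the authors' length-scaled unit, it was at 3.70 and 4.20 in the knockdown libraries against 1.59 in the sh control. For knockdown the direction thus depended on the unit, and group names are taken from the labels. The TPM median over all genes was itself a log2 ratio of 1.37 for knockdown over the sh control. The RBMS1 length that RSEM used was 1822 and 2003 nt in sh1088 and sh1196, against 4154 nt in the sh control. For overexpression, RBMS1 was higher in R1A by both units, but by TPM only at 12.56 against 11.57 in the pCDH control. The TPM median over all genes was a log2 ratio of -0.78 for this pair. A CPM ratio at least that of RBMS1 was found for 29.9% of 10532 genes, so the labelled overexpression was weak in these counts. Of 12 A549 markers, 11 reached 5 CPM in every library, and the summed level of all 12 ran from 8490 to 17537 CPM. Of 10 immune, endothelial and fibroblast markers, CD68, which epithelial lines also express, was the only one above 10 CPM, and PTPRC, CD3E and VWF had no counts in any library.

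PTP4A1 (ENSG00000112245) lies on chromosome 6 from 63521746 to 63583377 on the plus strand of GRCh38, by GENCODE release 29. A second gene row, AL135905.2 (ENSG00000285976), lies over its end on the same strand, from 63572012 to 63583587. AL135905.2 has 1 transcript of 5088 nt, with an annotated coding sequence of only 132 nt, 44 codons from an ATG to a stop. The transcript holds the whole coding sequence of PTP4A1, 519 nt, without a difference, from its base 1154 to its base 1672. The short annotated frame ends 352 nt ahead of the PTP4A1 start codon. Of 5332 different 30-base words in the 6 annotated PTP4A1 transcripts, 4141 (77.7%) also occur in AL135905.2, and of the 490 words in the PTP4A1 coding sequence all 490 do. A footprint on the phosphatase frame of PTP4A1 can thus be counted for either row.

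PTP4A2 (ENSG00000184007, chromosome 1, 31906421 to 31944856, minus strand) has a coding sequence of 501 nt for 167 residues. PTP4A3 has one of 519 nt for 173 residues, as many as PTP4A1. Coding sequences of PTP4A1 and PTP4A2 were identical at 74.0% of 519 aligned positions, with a longest identical run of 24 nt. Their translations were identical at 86.1% of residues. PTP4A3 was 69.0% identical in coding bases to PTP4A1 and 65.7% to PTP4A2. No 30-base word of PTP4A3 occurs in another gene. For PTP4A2, 47.7% of coding words do, 184 of 472 of them in the pseudogene PTP4A2P1.

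The 60 coding bases around the active-site cysteine are shown because they let the 2 rows of the PTP4A1 locus and PTP4A2 be compared letter by letter. Capitals mark the 16 bases at which PTP4A1 and PTP4A2 differ, and the sequences are from the transcripts of GENCODE release 29 (GRCh38), 5′ to 3′. The cysteine is residue 104 of PTP4A1 and 101 of PTP4A2.
PTP4A1: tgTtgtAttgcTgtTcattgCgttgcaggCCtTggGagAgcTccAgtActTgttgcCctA
AL135905.2: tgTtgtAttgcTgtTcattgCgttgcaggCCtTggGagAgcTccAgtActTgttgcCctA
PTP4A2: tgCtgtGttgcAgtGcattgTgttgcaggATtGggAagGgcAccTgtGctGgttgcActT
The first 2 lines are the same in every base, while PTP4A2 differs from them at 16 of 60, so a fragment that lies within this stretch cannot be assigned to 1 of the first 2 rows by its sequence.

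**Figure D1:**
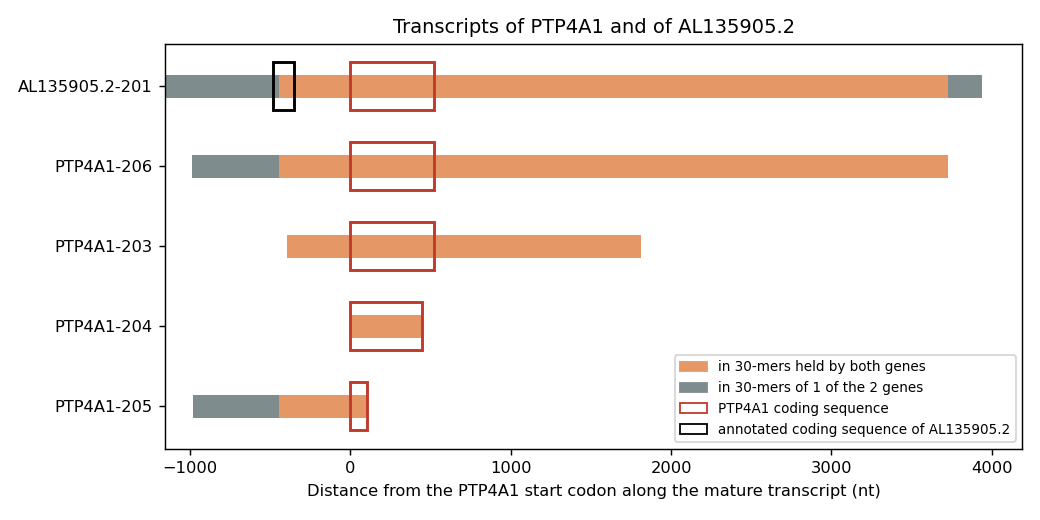
Transcripts that hold the PTP4A1 start codon, drawn as bars along the mature RNA, with distance from that codon in nt on the horizontal axis. Orange marks bases in 30-base words held by both genes and grey the rest; red boxes are PTP4A1 coding sequence and the black box the annotated coding sequence of AL135905.2, and the 2203 nt of PTP4A1-203 are orange throughout.

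The PTP4A1 row had 195 estimated counts in R1A, 168 in sh1088 and 135 in sh1196, against 2178 in the sh control and 51.8 in the pCDH control. As scaled counts this is 16.6 CPM in R1A, 17.3 and 10.5 CPM in sh1088 and sh1196, 268 CPM in the sh control and 2.98 CPM in the pCDH control. The sh control stood far above the other 4 libraries, and the pCDH control was the lowest, so that the 2 control libraries were the extremes of the row. They differed by 89.8-fold, more than either control did from its RBMS1 library.

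The AL135905.2 row had 2088 estimated counts in R1A, 3679 and 855 in sh1088 and sh1196, against 4157 in the sh control and 2832 in the pCDH control. It took most of the fragments of the locus in every library. Neither row held whole numbers, but their sums did: 2283 in R1A, 3847 and 990 in sh1088 and sh1196, 6335 in the sh control and 2884 in the pCDH control. The fractional parts of the 2 rows thus cancel, and RSEM, the authors' counting program, divided a fixed set of fragments between them.

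The PTP4A1 row received 8.55% of the summed counts in R1A, 4.36% in sh1088 and 13.6% in sh1196, against 34.4% in the sh control and 1.80% in the pCDH control. The highest share was 19.1 times the lowest. RSEM's own posterior standard deviation for the row was 24.1 counts in R1A, 18.8 and 15.7 counts in sh1088 and sh1196, 58.1 counts in the sh control and 6.62 counts in the pCDH control. These deviations are 11.5%, 9.78%, 10.7%, 2.67% and 11.7% of the posterior mean in that order. For PTP4A2 and PTP4A3 the same deviation was 0 in all 5 libraries.

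The gene length that RSEM used for PTP4A1, a mean over its transcripts weighted by their estimated abundance, was also highest in the sh control. It was 821 nt in R1A, 751 and 604 nt in sh1088 and sh1196, against 2180 nt in the sh control and 607 nt in the pCDH control. Annotated transcripts of PTP4A1 run from 447 to 4711 nt, and the one nearest in length to the sh control value is PTP4A1-203, of 2203 nt, all of whose 30-base words occur in AL135905.2. The length in the sh control was 3.13 times the mean of the other 4 libraries, a ratio reached by 0.342% of the genes with varying length and a mean of at least 5 CPM. For PTP4A2 the ratio was 1.41 and for PTP4A3 1.31. Which transcripts the fragments came from was not tested.

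**Figure D2:**
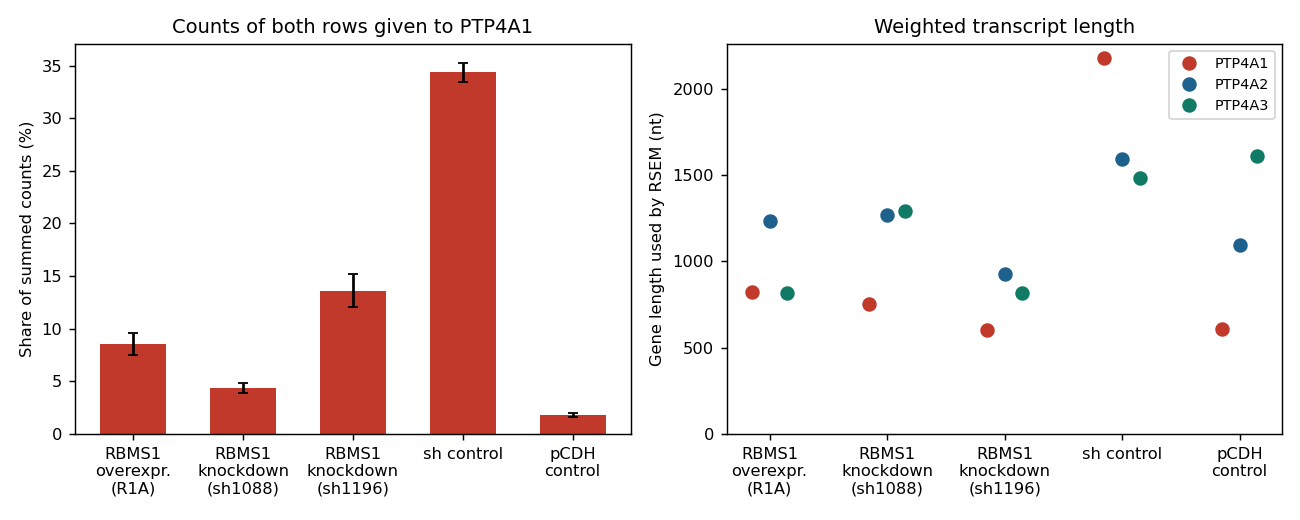
Left, the percentage of the summed counts of PTP4A1 and AL135905.2 that was given to the PTP4A1 row in each library, with RSEM's posterior standard deviation as bars. Right, the gene length in nt that RSEM used for each family member. The sh control is highest in share (34.4%) and in PTP4A1 length (2180 nt).

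Since the summed row does not depend on that division, it was described beside the PTP4A1 row. It stood at 194 CPM (95% exact Poisson interval 186 to 202) in R1A, at 398 (385 to 411) and 77.3 (72.6 to 82.3) CPM in sh1088 and sh1196, against 779 (760 to 799) CPM in the sh control and 166 (160 to 172) CPM in the pCDH control. The sh control was still the highest, by 4.69-fold over the pCDH control in place of the 89.8-fold of the PTP4A1 row. The selected PTP4A1 count makes up 34.4% of the sum in the sh control, so that level is not free of the selection. The sh1088 library now stood well above R1A and the pCDH control, and sh1196 was the lowest of the 5.

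PTP4A2, a close paralog found in most tissues, had 869 estimated counts in R1A, 1099 and 526 in sh1088 and sh1196, against 1769 in the sh control and 1273 in the pCDH control. Scaled, these are 73.7 CPM in R1A, 114 and 41.1 CPM in sh1088 and sh1196, 218 CPM in the sh control and 73.3 CPM in the pCDH control. The exact Poisson intervals of R1A and the pCDH control overlap, and the knockdown libraries lay on either side of both. The lincRNA AL136115.2, which overlaps PTP4A2 on the same strand, had 10 counts in R1A, 1 in sh1196 and 0 in the others.

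PTP4A3, the third member, lies on chromosome 8 from 141391993 to 141432454 on the plus strand. It had 21 estimated counts in R1A, 29 and 45 in sh1088 and sh1196, against 50 in the sh control and 34 in the pCDH control. Its levels were 1.78 (95% exact Poisson interval 1.10 to 2.72) CPM in R1A, 3.00 (2.01 to 4.31) and 3.51 (2.56 to 4.70) CPM in sh1088 and sh1196, against 6.15 (4.56 to 8.11) CPM in the sh control and 1.96 (1.36 to 2.74) CPM in the pCDH control. The sh control was the highest, although its interval overlaps that of sh1196. R1A and the pCDH control, whose intervals overlap, were the lowest. The 9 pseudogene rows of the family held 4 counts in all, in PTP4A2P1 in the pCDH control.

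PTP4A2 and PTP4A3 were highest in the sh control by CPM after TMM scaling. For PTP4A3 the interval there, 4.56 to 8.11 CPM, overlaps that of sh1196, 2.56 to 4.70 CPM. TMM scaling multiplied the library size by 0.700 in the sh control and by 1.24 in sh1196. Before scaling, PTP4A3 had 50 estimated counts in the sh control and 45 in sh1196. The sh control is highest for 23.4% of 10559 genes with a mean of at least 5 CPM. The PTP4A1 row was also highest there but was selected for that count, and AL135905.2, highest there too, shares its fragments. Per kilobase of coding sequence the summed PTP4A1 locus stood at 373 CPM in R1A, 767 and 149 CPM in sh1088 and sh1196, against 1501 CPM in the sh control and 320 CPM in the pCDH control. PTP4A2 on the same scale had 147 CPM in R1A, 227 and 82.0 CPM in sh1088 and sh1196, against 434 CPM in the sh control and 146 CPM in the pCDH control. PTP4A3 had 3.43 CPM in R1A, 5.78 and 6.77 CPM in sh1088 and sh1196, against 11.8 CPM in the sh control and 3.77 CPM in the pCDH control. On this scale the order was locus, PTP4A2, PTP4A3 in each of the 5 libraries, although AL135905.2 can also hold fragments from outside the PTP4A1 frame.

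By TPM, which divides by RSEM's own length, the order of the first 2 was not fixed. The summed locus had 34.1 TPM in R1A, 36.1 and 19.5 TPM in sh1088 and sh1196, against 48.4 TPM in the sh control and 36.5 TPM in the pCDH control. PTP4A2 had 37.4 TPM in R1A, 33.6 and 28.5 TPM in sh1088 and sh1196, against 30.01 TPM in the sh control and 67.9 TPM in the pCDH control. PTP4A2 was thus above the locus in R1A, sh1196 and the pCDH control and below it in the others, and its own highest library was the pCDH control. PTP4A3 stayed the lowest of the family, at 1.38 TPM in R1A, 0.87 and 2.77 TPM in sh1088 and sh1196, against 0.91 TPM in the sh control and 1.21 TPM in the pCDH control.

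**Figure D3:**
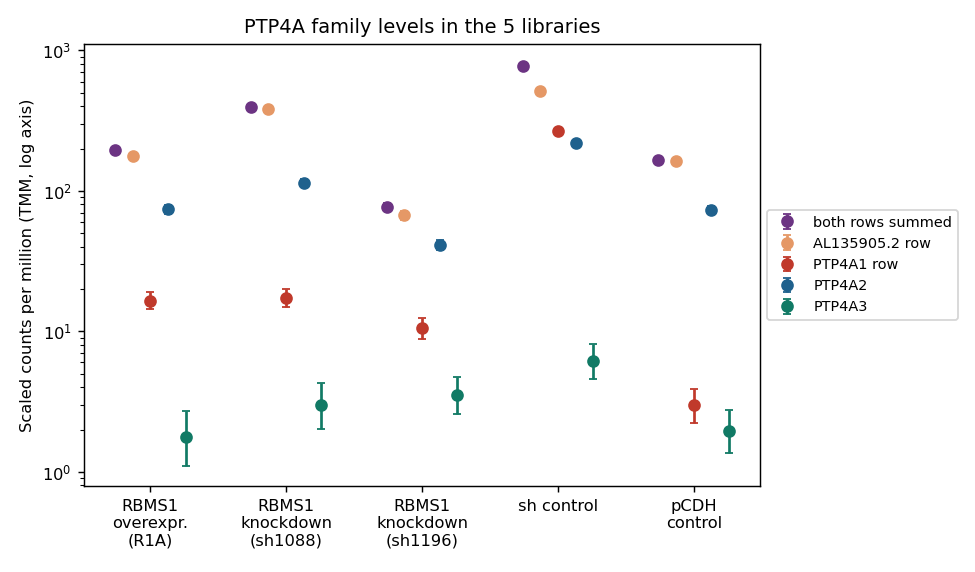
Scaled counts (CPM after TMM scaling, log axis) of the family rows in each library, with 95% exact Poisson intervals as bars. The PTP4A1 row runs from 2.98 CPM in the pCDH control to 268 CPM in the sh control, while the summed row runs from 77.3 to 779 CPM and PTP4A2 from 41.1 to 218 CPM.

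A ratio within a library needs no scaling. Summed locus counts were 2.63 (95% exact interval 2.43 to 2.84) times those of PTP4A2 in R1A, 3.50 (3.27 to 3.75) and 1.88 (1.69 to 2.10) times in sh1088 and sh1196, against 3.58 (3.40 to 3.78) times in the sh control and 2.27 (2.12 to 2.42) times in the pCDH control. The highest of these ratios was 1.90 times the lowest. For the PTP4A1 row alone the same ratio was 0.225 in R1A, 0.153 and 0.256 in sh1088 and sh1196, 1.23 in the sh control and 0.0407 in the pCDH control, a range of 30.3-fold. By the summed counts the intervals of sh1088 and the sh control overlap, and sh1196 had the lowest ratio of the locus to PTP4A2.

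The first comparison asked what overexpression of RBMS1 did to the family, R1A against the pCDH control. Each group is 1 library, so there is no replicate check and no p-value. The PTP4A1 row was 5.55-fold higher in R1A, a log2 ratio of 2.47 (95% exact counting interval 2.02 to 2.94). Its companion AL135905.2 stood at 0.12 (0.037 to 0.20), and the summed row at 0.22 (0.14 to 0.30). PTP4A2 stood at 0.0086 (-0.12 to 0.13) and PTP4A3 at -0.14 (-0.99 to 0.69). Of the 2 members with a mean of at least 5 CPM in this pair, PTP4A1 and PTP4A2, the PTP4A1 row alone was at least 2-fold higher, as were 14.8% of 10841 genes, and neither was at least 2-fold lower, as were 14.0%. PTP4A3 fell below that limit.

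The share of counts in the PTP4A1 row was 8.55% in R1A and 1.80% in the pCDH control, so the row's difference went with the division of the locus counts, and the summed row was near the median of all genes, 0.060. By TPM the PTP4A1 row stood at 1.305 and the summed row at -0.10, beside a TPM median over all genes of -0.78. PTP4A2 turned to -0.86 by TPM and -0.32 by FPKM, and to -0.13 by library size scaling. PTP4A3 turned to 0.19 by TPM and 0.72 by FPKM, where the FPKM median over all genes was -0.24. Set against the sh control instead, the PTP4A1 row stood at -4.02 and PTP4A2 at -1.56, in the opposite direction for PTP4A1. In the authors' deposited table PTP4A1 has a log2 fold change of 3.99 (adjusted p = 2.5e-11) for this comparison, PTP4A2 0.11 and PTP4A3 -0.062. The mean of normalised counts that the authors' deposited table gives for PTP4A1, 312, lies above both of its count columns, 195 in R1A and 51.8 in the pCDH control. A weighted sum of those columns, fitted over 10983 genes, fell short of it by 1.49 on the log2 scale, where 95% of genes lay within 0.33.

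The second comparison, R1A against both knockdown libraries, uses neither control and so none of the values that selected PTP4A1. edgeR's quasi-likelihood test with Benjamini-Hochberg adjustment over 14800 genes called 0 genes (0%), with 447 at an unadjusted p under 0.05, and DESeq2 called 12. The PTP4A1 row was at 0.23 on the log2 scale (SE 0.51, edgeR adjusted p = 1.00). PTP4A2 stood at -0.090 (SE 0.65, edgeR adjusted p = 1.00) and PTP4A3 at -0.88 (SE 0.82, edgeR adjusted p = 1.00). The summed row stood at -0.32 (SE 1.00, edgeR adjusted p = 1.00). For none of the 3 members did the difference pass this test. The vector system and the RBMS1 group cannot be told apart here.

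Behind these values the 2 hairpins differed for the locus and for PTP4A2. R1A was below sh1088 and above sh1196 for both: for PTP4A2 by a log2 ratio of -0.62 (-0.75 to -0.49) against sh1088 and of 0.84 (0.69 to 1.00) against sh1196. For the summed locus the log2 ratio was -1.04 (-1.11 to -0.96) against sh1088 and 1.33 (1.22 to 1.43) against sh1196. PTP4A3 was lower in R1A than in either, by a log2 ratio of -0.75 (-1.63 to 0.11) and -0.98 (-1.80 to -0.20), and the first of these intervals includes 0.

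The third comparison asked what RBMS1 knockdown did. edgeR called 0 of 14913 genes (0%) with Benjamini-Hochberg adjustment, 876 were at an unadjusted p under 0.05, and DESeq2 called 13. As a description, the PTP4A1 row was 15.5-fold lower in sh1088 and 25.5-fold lower in sh1196 than in the sh control. Its fitted log2 fold change was -4.25 (SE 0.52). The row was selected on its sh control count, so a low value here was favoured by that choice. The summed row includes that count, so its contrasts with the sh control are a description as well. For AL135905.2 the log2 ratio was -0.43 in sh1088 and -2.94 in sh1196. For the summed row it was -0.97 (-1.03 to -0.91) in sh1088 and -3.33 (-3.43 to -3.24) in sh1196, with a fitted value of -1.69 (SE 0.92). The fitted value thus lay nearer to 0 for the whole locus than for the PTP4A1 row, and the share of counts given to that row was lower in both knockdown libraries than in the sh control. In a bulk culture, fewer cells with the mRNA and less mRNA or fewer ribosomes per cell cannot be told apart.

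PTP4A2 was at -1.47 on the log2 scale (SE 0.64, edgeR adjusted p = 0.828), lower in 2 of 2 knockdown libraries, at -0.94 (-1.05 to -0.83) in sh1088 and -2.41 (-2.55 to -2.26) in sh1196. PTP4A3 stood at -0.90 (SE 0.66, edgeR adjusted p = 0.845), also lower in both, at -1.04 (-1.75 to -0.35) and -0.81 (-1.42 to -0.20). Neither passed the test, which has 1 residual degree of freedom and assumes that the lone control varies like the knockdown libraries. In the authors' deposited table, PTP4A1 has -4.26, PTP4A2 -1.48 (adjusted p = 0.0203) and PTP4A3 -0.91 (adjusted p = 0.530). The sizes are close to those of the present fit, while the adjusted p-values for PTP4A2 and PTP4A3 are lower.

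By the authors' length-scaled units the family looked different. By TPM, for the mean of the knockdown libraries, PTP4A2 stood at a log2 ratio of 0.048, PTP4A3 at 1.00, the PTP4A1 row at -1.40 and AL135905.2 at -0.29, where the median of all genes was 1.37. The hairpins lay on either side of the sh control for PTP4A2 and PTP4A3. PTP4A3 had 0.87 TPM in sh1088 and 2.77 TPM in sh1196 against 0.91 TPM, and PTP4A2 had 33.6 and 28.5 TPM against 30.01 TPM. By FPKM PTP4A2 stood at -0.55 and PTP4A3 at 0.35, where the median was 0.74. In all of these the members lay below the median of all genes. Plain library size scaling, in place of TMM, moved the median of all genes to 0.62, against 0.066 in the TMM fit, and gave PTP4A2 -1.07 and PTP4A3 -0.33. Set against the pCDH control instead, the PTP4A1 row stood at 2.24, the summed row at 0.54, PTP4A2 at 0.10 and PTP4A3 at 0.75, all positive.

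**Figure D4:**
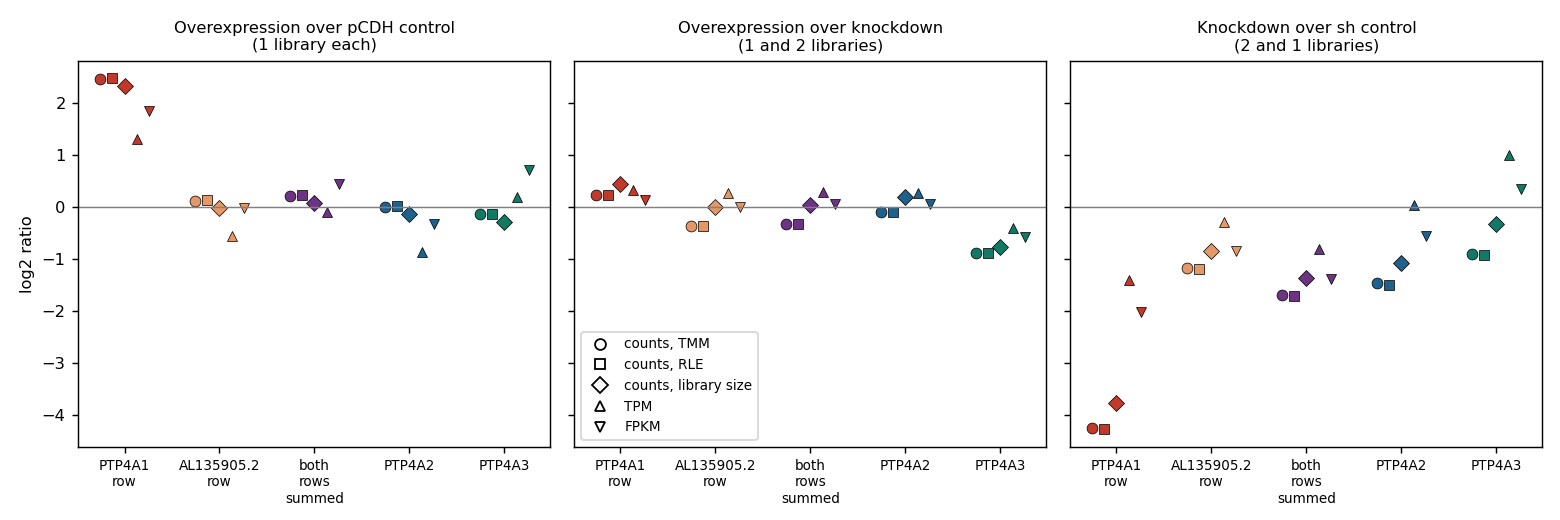
Log2 ratios of each family row in the 3 comparisons (vertical axis, shared), with overexpression over pCDH control at left, overexpression over knockdown in the middle and knockdown over sh control at right. Marker shapes give the unit or scaling; PTP4A1 stands apart from AL135905.2 and from the summed row in the left and right panels, at 2.47 and -4.25 by TMM-scaled counts.

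The 2 hairpins were then set against each other across genes. PTP4A2 was 2.77-fold and the summed locus 5.15-fold higher in sh1088 than in sh1196. Of 10550 genes, 2.86% had a ratio at least that of PTP4A2 and 0.919% one at least that of the summed locus. The PTP4A1 row alone was 1.65-fold higher in sh1088, and PTP4A3 differed by a log2 ratio of -0.23 (-0.95 to 0.48). The share of nuclear protein-coding genes was 42.2% in sh1088 and 66.0% in sh1196, and the part of this make-up in the difference was not tested.

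Genes most like each member across the 5 libraries were ranked by the root mean square difference between centred log2 profiles, among genes with a mean of at least 5 CPM. For the PTP4A1 row these were MT-TS2 (a mitochondrial serine tRNA), RF00006, SNHG25 (a snoRNA host gene), SNORA32 (a small nucleolar RNA) and AC073140.1, at differences of 0.67 to 0.79. MT-TS2, for example, had 2094 CPM in R1A, 6814 and 1898 CPM in sh1088 and sh1196, against 26928 CPM in the sh control and 457 CPM in the pCDH control. MT-TS2, RF00006, SNHG25 and SNORA32 carry non-coding biotypes in GENCODE, and AC073140.1 was not matched to it. For PTP4A2 they were ZCRB1, SMIM10L1, MRPS17, SNTB1 and LBH, at 0.11 to 0.16, all protein-coding. For PTP4A3 they were DEDD, DTX3, CCNB1IP1, RNF181 and RAB2B, at 0.088 to 0.15, also all protein-coding. The PTP4A1 profile includes the sh control value that selected the gene, so genes that peak in that library were favoured in its ranking. Its differences were also larger than those of PTP4A2 and PTP4A3, so its matches were less close. Over 5 libraries such likeness is a description only.

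Genes of the pathway around the family were read from 5 lists chosen with earlier results of these data known. In knockdown against the sh control, 0 members of any list passed the edgeR test, as for all genes (0%). Over all genes tested, 8075 of 14913 were above 0, and the counts of each list are to be read beside that share. Of the CNNM and magnesium transport genes, 14 of 20 measured were above 0, with a median log2 fold change of 0.25 against 0.066 for all genes. CNNM3, which PTP4A proteins bind, had 16.5 CPM in R1A, 14.5 and 20.1 CPM in sh1088 and sh1196, against 13.9 CPM in the sh control and 31.5 CPM in the pCDH control, a knockdown value of 0.33 (SE 0.48). CNNM4, another binding partner, had 6.87 CPM in R1A, 7.45 and 12.4 CPM in the knockdown libraries, against 9.72 CPM in the sh control and 22.6 CPM in the pCDH control, a knockdown value of 0.045 (SE 0.56). For R1A over the pCDH control, with 1 library each, the log2 ratio was -1.72 for CNNM4 and -0.93 for CNNM3. CNNM1 stood at -0.040 and CNNM2 at -0.46. Over the 18 list genes that reached a mean of 5 CPM in this pair, the median was -0.039, beside 0.060 for all genes. A drop of 2-fold or more was seen for 2 of the 18, beside 14.0% of all genes, and a rise of that size for 1, beside 14.8%. The smallest knockdown p-values of this list were those of SLC41A2 at -0.77 (SE 0.43), SLC41A3 at 0.85 (SE 0.49) and MAGT1 at 0.69 (SE 0.52), each reported to carry magnesium.

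Of 12 prenylation genes 4 were above 0 in knockdown, beside 8075 of 14913 over all genes, with a median of -0.052. FNTB, the beta chain of the farnesyltransferase that modifies PTP4A tails, had 16.1 CPM in R1A, 20.1 and 11.4 CPM in sh1088 and sh1196, against 37.7 CPM in the sh control and 18.9 CPM in the pCDH control. Its knockdown value was -1.25 (SE 0.49, edgeR adjusted p = 0.828). FNTB, RCE1 and FDPS are named for the smallest knockdown p-values of this list, so a difference from the sh control was favoured by that choice. RCE1, the protease that trims farnesylated tails, stood at 0.61 (SE 0.47), FDPS, which makes the farnesyl donor, at 0.58 (SE 0.45) and RABGGTB, a chain of the enzyme that prenylates Rab proteins, reported to bind PTP4A2, at -0.013 (SE 0.45).

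Among 14 measured reported partners and substrates 6 were above 0, beside 8075 of 14913 over all genes, with a median of -0.12. KRT8, a keratin, stood at -1.05 (SE 0.59) and LEO1, a subunit of the PAF1 complex, at 0.75 (SE 0.49). In the dual-specificity phosphatases 10 of 33 measured were above 0 and the median was -0.20. STYX, a catalytically inactive relative, had 17.9 CPM in R1A, 22.9 and 14.7 CPM in sh1088 and sh1196, against 71.6 CPM in the sh control and 14.1 CPM in the pCDH control. Its knockdown value was -1.92 (SE 0.46, edgeR adjusted p = 0.733), and DUSP8, which acts on JNK, stood at -1.51 (SE 0.64). In the classical tyrosine phosphatases 15 of 26 measured were above 0, with a median of 0.16. PTPN9, PTPN11 and PTPN6 stood at -0.87 (SE 0.43), -0.77 (SE 0.43) and -0.81 (SE 0.52), below 0 unlike most of that list. The genes named in this paragraph are among those with the smallest knockdown p of their lists. A difference from the sh control was favoured by that choice, and they do not stand for their lists.

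**Figure D5:**
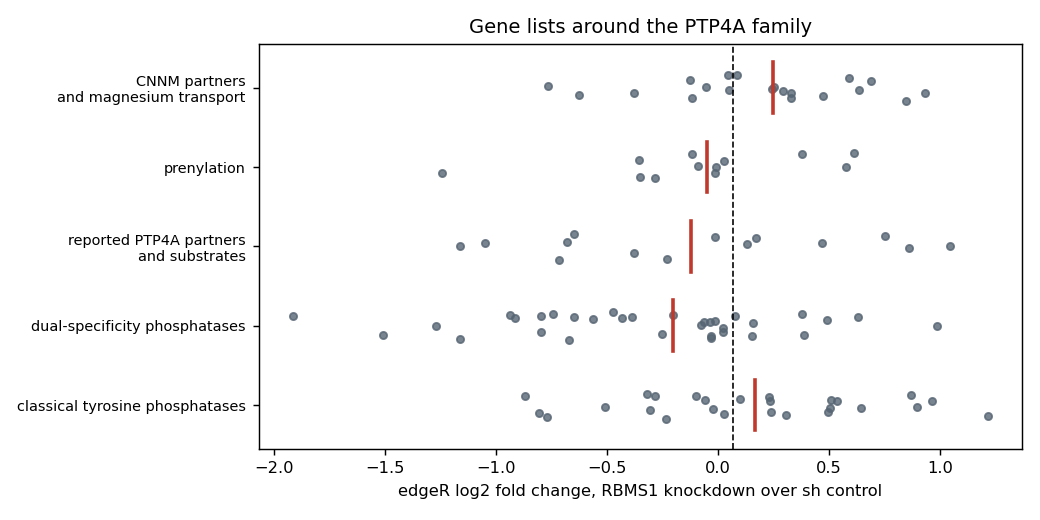
Each point is 1 gene of a list, placed by its edgeR log2 fold change for RBMS1 knockdown over the sh control; red bars are list medians and the dashed line is the median of all genes tested, 0.066. List medians lie between -0.20 for dual-specificity phosphatases and 0.25 for the CNNM and magnesium transport genes.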

How the data were processed

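Per the file headers, the authors deposited RSEM estimated counts (expected counts), posterior mean counts with their standard deviation, TPM and FPKM, both scaled to RSEM's effective length, and gene lengths. The 2 comparison tables hold a mean normalised signal per gene, log2 fold changes, p-values and a test score, per the file headers; the authors' count columns equal the sample values (largest difference 0). Tools in the submitters' processing notes are RSEM 1.3.1, STAR 2.4.2, Bowtie and DESeq2. The authors' build and annotation were not given in the sources used here; 58656 of 58929 identifiers matched GENCODE release 29 (GRCh38).

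Members and gene lists were chosen with earlier results of these data known. The text names the members, their pseudogenes and same-strand overlaps, RBMS1, the 5 genes most like each member (pseudocount of 0.5 CPM) and, from each list, the 3 with the lowest knockdown p plus CNNM3, CNNM4 and RABGGTB. 1 gene that this rule names is not reported here. Counts were rounded. edgeR 4.0.16 (TMM, filterByExpr, robust quasi-likelihood test, Benjamini-Hochberg at 0.05) was run in R 4.3.3, with DESeq2 1.42.0 as an alternative, and checked on simulated data. 1 library against 1 was given as a ratio of scaled counts with a Clopper-Pearson 95% interval. Shared sequence was searched with 30-base words over all GENCODE transcripts, on the transcript strand. The summed row of PTP4A1 and AL135905.2 was planned as an alternative, and its own alternatives were chosen after seeing the data.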

Additional observations from a re-analysis of the deposited data

How the results depend on the processing

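Of 143 values of the family rows under alternatives, 108 kept their sign and 35 changed it. None of the 54 for which a test is given passed 0.05. Some of these alternatives could hardly change a value. The limit of a mean CPM of at least 1 alters only which genes are counted. The pseudogene rows added 4 counts in all, and PTP4A1 with overlaps summed repeats the summed row. The 108 are thus not a count of independent checks. Genes called in knockdown against the sh control numbered 0, but 102 with no filter on low counts, 27 by library size, 4 among nuclear protein-coding genes and 13 by DESeq2. In overexpression against knockdown they numbered 0, but 42 with no filter, 7 by library size and 12 by DESeq2. Genes at least 2-fold higher in overexpression against the pCDH control numbered 1605, but 352 and 455 by TPM with pseudocounts of 1 and 0.1; lower ones 1523, but 4011 and 4523 by TPM and 2473 at a mean CPM of at least 1.

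With the other control, knockdown values turned to 2.24 for PTP4A1, 0.10 for PTP4A2, 0.75 for PTP4A3, 0.48 for AL135905.2 and 0.54 for the summed row, and overexpression values to -4.02 (PTP4A1), -1.56 (PTP4A2), -1.53 (AL135905.2) and -2.01 (sum). For the mean of the knockdown libraries, values turned by TPM for PTP4A2 (0.048) and PTP4A3 (1.00) and by FPKM for PTP4A3 (0.35). In overexpression against knockdown, PTP4A2 turned to 0.20 by library size, 0.27 by TPM and 0.051 by FPKM, AL135905.2 to 0.0097, 0.27 and 0.0084, the summed row to 0.042, 0.29 and 0.054, and PTP4A1 to -0.32 when summed. Against the pCDH control, AL135905.2 turned to -0.023 by library size, -0.56 by TPM and -0.026 by FPKM, the summed row to -0.10 by TPM, PTP4A2 to -0.13, -0.86 and -0.32 in the order of AL135905.2, and PTP4A3 to 0.19 by TPM and 0.72 by FPKM. The cause was not tested.

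Without replicate 1 or 2 of the knockdown (sh1088 or sh1196), values have no test. Knockdown then ran from -4.67 to -3.89 for PTP4A1, -2.43 to -0.90 for PTP4A2, -0.95 to -0.81 for PTP4A3, -2.97 to -0.39 for AL135905.2 and -3.36 to -0.93 for the sum. Overexpression against knockdown ran from -0.11 to 0.64, -0.66 to 0.84, -0.92 to -0.73, -1.14 to 1.40 and -1.07 to 1.32 in the same order. Leaving out either control or overexpression library leaves no comparison. No paired analysis was possible because the labels give no shared replicate numbers. Depth limits PTP4A3 most, at 21 to 50 counts.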
